A study of Homo sapiens with 18 samples.

Results

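Subtelomeric bins are 10 kb windows in the outer 2 Mb of the chromosome arms of U937 cells, an established human acute myeloid leukaemia line. They were taken from the start of chromosomes 1 to 12 and 16 to 20 and from the end of chromosomes 1 to 22. The end of a chromosome was set at the farthest base in any deposited domain list or annotated gene. This gave 7800 bins of 303010 over chromosomes 1 to 22 and X, of which 3400 lay on 17 short arms and 4400 on 22 long arms. Together they span 77.9 Mb, or 2.57% of the length, and hold 1395 of 19974 protein-coding genes. Subtelomeres were gene-rich, with 17.9 genes per Mb against 6.29 in the rest of the chromosomes, and 62.9% of their bins touched a protein-coding gene, against 45.4% of the rest.

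The cells had a knockout of SUV39H1 (SKO), a knockout of SUV39H1 and SUV39H2 (DKO), or a control guide (sgControl), and H3K9me3 and H3K27me3 were each mapped by chromatin immunoprecipitation sequencing in 2 libraries per genotype. SETDB1 was mapped in 2 libraries of wild-type (WT) U937 cells. The labels do not say if a knockout line was a clone or a pool, nor if the 2 libraries of a genotype had separate cultures behind them, so p-values measure only a spread that may be technical. The libraries held 16.5M to 23.6M reads inside H3K9me3 domains and 47.9M to 70.7M inside H3K27me3 domains, and no spike-in factor was in the deposited lists, so a share is a share of called length, not an amount of histone mark.

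Subtelomeres are the stretches next to the telomere repeats, where repeats, duplicated gene families and ordinary genes lie side by side. H3K9me3 is a heterochromatin mark set by SUV39H1, SUV39H2 and SETDB1, and SETDB1 is brought to many zinc finger genes through KRAB zinc finger proteins and TRIM28. H3K27me3 is set by Polycomb repressive complex 2 and is typical of silent developmental and neuronal genes.

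Promoters of genes whose marking differed most between genotypes are shown so that the base composition under these domains can be seen. Each covers 250 bases before to 50 bases after the gene's start (RefSeq, GRCh38.p14), with CG dinucleotides in capitals. LYPD8 at chr1:248755710-248756009 (minus strand) and ZNF772 at chr19:57477517-57477816 (minus strand) lay in H3K27me3 domains in sgControl only. A1BG at chr19:58353443-58353742 (minus strand) lay in H3K9me3 domains in sgControl only, and C20orf202 at chr20:1203204-1203503 (plus strand) in the knockouts only.
LYPD8: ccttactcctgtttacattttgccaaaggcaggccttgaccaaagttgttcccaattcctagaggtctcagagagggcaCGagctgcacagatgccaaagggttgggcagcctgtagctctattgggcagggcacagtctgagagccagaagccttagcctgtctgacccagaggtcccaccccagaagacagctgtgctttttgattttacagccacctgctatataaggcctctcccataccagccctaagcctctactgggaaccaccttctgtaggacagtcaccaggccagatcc
ZNF772: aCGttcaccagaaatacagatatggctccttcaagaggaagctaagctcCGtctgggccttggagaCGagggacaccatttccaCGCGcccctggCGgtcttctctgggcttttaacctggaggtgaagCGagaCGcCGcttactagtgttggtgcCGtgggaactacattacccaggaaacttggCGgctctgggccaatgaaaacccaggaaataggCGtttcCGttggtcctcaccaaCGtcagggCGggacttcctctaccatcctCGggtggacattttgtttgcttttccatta
A1BG: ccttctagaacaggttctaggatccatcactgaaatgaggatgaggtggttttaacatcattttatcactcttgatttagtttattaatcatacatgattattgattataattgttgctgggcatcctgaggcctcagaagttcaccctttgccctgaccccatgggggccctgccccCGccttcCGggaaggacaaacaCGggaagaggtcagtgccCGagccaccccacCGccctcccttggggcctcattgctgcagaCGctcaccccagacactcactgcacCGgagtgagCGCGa
C20orf202: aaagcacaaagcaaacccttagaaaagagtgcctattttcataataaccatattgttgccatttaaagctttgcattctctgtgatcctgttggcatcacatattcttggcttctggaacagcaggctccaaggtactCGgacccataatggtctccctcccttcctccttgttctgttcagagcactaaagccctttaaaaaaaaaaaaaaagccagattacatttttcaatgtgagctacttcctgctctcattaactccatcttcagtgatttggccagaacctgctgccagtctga

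ZNF772 had 16 CG dinucleotides, A1BG 9, and LYPD8 and C20orf202 1 each. Of the 1395 subtelomeric genes, 972 had a promoter sequence, and their median was 31 CG per promoter against 22 in the rest. The telomere repeat unit TTAGGG, searched on both strands, occurred in 68 of the 972 subtelomeric promoters and in 8.63% of all 15812 promoters, and LYPD8 was among the promoters that held it. Promoters inside H3K27me3 domains numbered 66 and 70 in the SKO libraries and 79 and 77 in DKO, against 102 in each sgControl library. In the rest of the chromosomes the corresponding shares of promoters were 14.6% and 14.3% in SKO, 15.4% and 14.9% in DKO, and 14.8% in both sgControl libraries.

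H3K27me3 covered less of the subtelomeres in both knockouts, while it covered more of the rest of the chromosomes. Of the subtelomeric length, 23.3% and 22.9% lay in H3K27me3 domains in SKO, 24.2% and 23.9% in DKO, and 30.0% and 29.9% in sgControl. In the rest it averaged 40.2% ± 0.237 in SKO, 40.4% ± 0.648 in DKO, and 35.1% ± 0.121 in sgControl (SD, n = 2). The knockout and sgControl libraries did not overlap in either place, and the order of the groups was opposite. The 4 knockout libraries lay 6.32 percentage points below sgControl at the subtelomeres, and the difference between subtelomere and rest was 11.5 points lower in the knockouts (both p = 0.0667, exact two-sided permutation test, adjusted p = 0.0952 over 10 tests). With 4 against 2 libraries this is the smallest p that the test can give, so it cannot pass 0.05. The trend over 0, 1 and 2 SUV39H genes targeted was -2.92 points per gene for the subtelomeric share (exact two-sided permutation p = 0.133, adjusted p = 0.133), and DKO did not lie below SKO.

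The H3K9me3 domains as deposited differed less at the subtelomeres than elsewhere. This did not hold at equal covered length, nor among bins with 0 to 4 genes within 500 kb (given below). The domains covered 23.7% of the subtelomeric length in both SKO libraries, 23.2% and 24.0% in DKO, and 26.7% and 24.8% in sgControl. In the rest they covered 24.9% ± 0.0526 in SKO, 26.2% ± 0.184 in DKO, and 34.1% ± 0.712 in sgControl (SD, n = 2). The subtelomeric share was 2.12 points lower in the knockouts and the difference between subtelomere and rest was 6.47 points higher (both p = 0.0667, exact two-sided permutation test, adjusted p = 0.0952). The slope of the subtelomeric share over the number of genes targeted was -1.09 points per gene (exact permutation p = 0.0667, adjusted p = 0.0952). When all libraries were trimmed to the same covered length, which holds the total nearly fixed, H3K9me3 was 2.83 points higher in the knockouts at subtelomeres and differed by -0.0746 points in the rest. In bins that touch a gene the subtelomeric share was 0.229 points higher in the knockouts, less than the sgControl SD of 1.33 points. At equal covered length H3K27me3 was 8.92 points below sgControl (-8.92) at subtelomeres and 0.235 points above it in the rest. Within each of the 6 libraries of a mark, subtelomeres were less covered than the rest, by 4.05 points on average for H3K9me3 and 12.9 points for H3K27me3 (both p = 0.03125, exact two-sided sign-flip permutation test, adjusted p = 0.0952). This is the smallest p that the test can give, and the libraries are repeats of 3 genotypes of 1 cell line. Subtelomere minus rest averaged -1.21 points in SKO, -2.58 in DKO and -8.37 in sgControl for H3K9me3. For H3K27me3 it averaged -17.1 points in SKO, -16.3 in DKO and -5.21 in sgControl. Reads per kb inside H3K9me3 domains, as a ratio of subtelomeres to the rest, were 1.36 and 1.38 in SKO, 1.35 and 1.34 in DKO, and 1.2 and 1.19 in sgControl, whereas the ratio for H3K27me3 was 1.01 to 1.04 in all libraries.

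**Figure D1:**
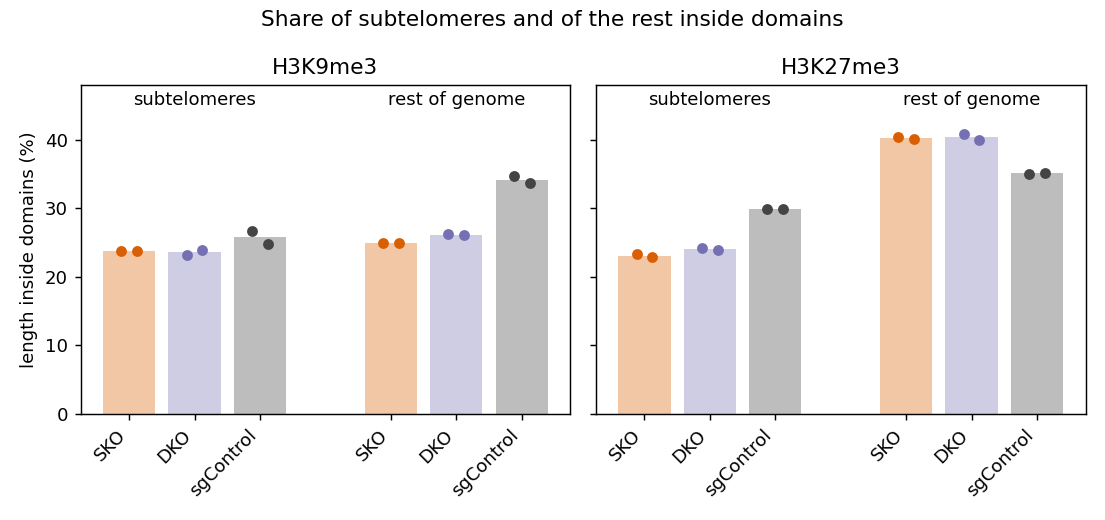
Share of length (%) inside H3K9me3 (left) and H3K27me3 domains (right) for subtelomeres and for the rest of chromosomes 1 to 22 and X. Points are libraries and bars their means (n = 2); H3K27me3 lay below sgControl in all 4 knockout libraries at subtelomeres and above it in all 4 in the rest.

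The lower H3K27me3 coverage ran through the whole outer 2 Mb and was not limited to it. In 20 of 20 windows of 100 kb, pooled over the 39 ends, both SKO libraries and both DKO libraries lay below both sgControl libraries. In the same kind of window from 2 to 10 Mb from these ends, SKO lay below in 72.5% and above in 21.2%, and DKO lay below in 66.2% and above in 20.0%. Between 400 and 500 kb from the end the share was 13.6% and 13% in SKO, 16% and 16.1% in DKO, and 24.8% and 26.3% in sgControl. In the outermost 100 kb it was 15.8% and 16.1% in SKO, 17.6% and 17.3% in DKO, and 20.0% and 20.1% in sgControl. Short-arm ends in this build begin with unsequenced bases, which can hold no domain. For H3K9me3, SKO lay below sgControl in 13 of the 20 windows and above it in 2, and from 2 to 10 Mb below in 71.2% and above in 1.25%. DKO lay below in 10 of the 20 and above in 0, and from 2 to 10 Mb below in 30.0% and above in 33.8%.

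**Figure D2:**
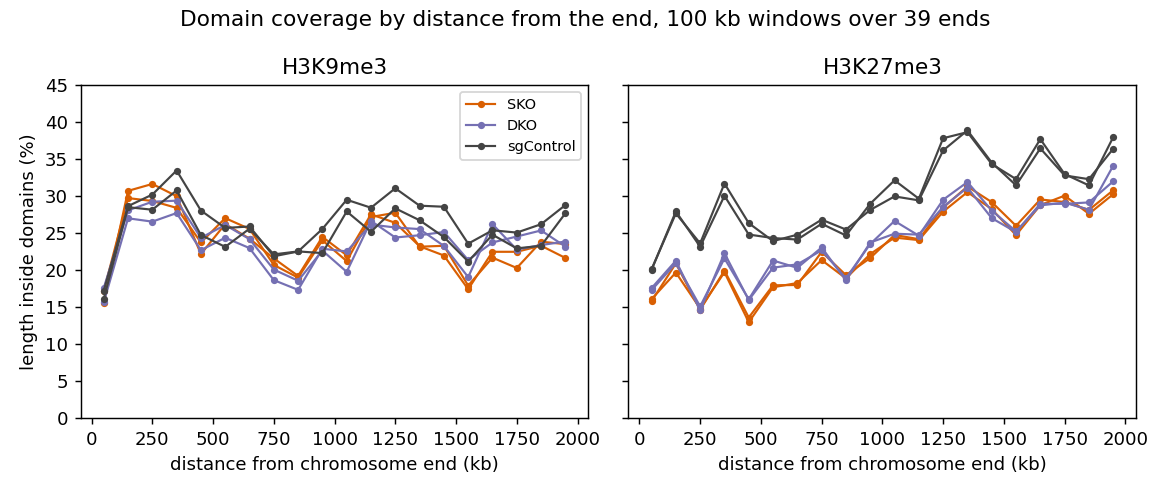
Share of length (%) inside domains against distance from the chromosome end (kb), in 100 kb windows over 39 ends, with a line for each library. All windows shown lie within 2 Mb of an end; the H3K27me3 lines of SKO and DKO run below those of sgControl in all 20 windows, and the H3K9me3 lines cross.

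Gene density was compared because subtelomeres are gene-rich. A subtelomeric bin had a median of 13 protein-coding genes within 500 kb to either side, against 4 in the rest. Among bins with 0 to 4 such genes, H3K27me3 covered 69.5% ± 1.13 of subtelomeric length in SKO, 69.1% ± 0.410 in DKO and 74.7% ± 0.221 in sgControl, and of the rest 56.6% ± 0.302 in SKO, 56.5% ± 0.895 in DKO and 48.3% ± 0.204 in sgControl (SD, n = 2). With 10 to 19 genes it covered 7.67% ± 0.199 of subtelomeric length in SKO, 8.41% ± 0.254 in DKO and 16.2% ± 0.0904 in sgControl, and of the rest 14.6% ± 0.174 in SKO, 15.1% ± 0.345 in DKO and 14.9% ± 0.0255 in sgControl (SD, n = 2). With 20 to 39 genes the knockouts were lower in both places, at 11.7% ± 0.118 in SKO, 13.6% ± 0.0608 in DKO and 19.2% ± 0.410 in sgControl for subtelomeres, and 10.5% ± 0.0238 in SKO, 11.0% ± 0.237 in DKO and 14.3% ± 0.0116 in sgControl for the rest (SD, n = 2). With 40 genes or more, subtelomeres had 1.58% and 1.31% in SKO and 3.11% and 3.60% in DKO, against 3.58% and 3.99% in sgControl, so that DKO overlapped sgControl, while the rest had 11.7% ± 0.147 in SKO, 11.5% ± 0.0372 in DKO and 16.1% ± 0.151 in sgControl (SD, n = 2). Higher H3K27me3 coverage in the rest was thus found where genes were sparse, with under 10 in the window, and the part of gene density in the subtelomeric difference was not tested. With 0 to 4 genes, H3K9me3 covered on average 25% of subtelomeric length in SKO, 32.1% in DKO and 47.5% in sgControl. Of the rest it covered 24.2% in SKO, 26.9% in DKO and 41.3% in sgControl. With 10 to 19 genes H3K9me3 was higher in the knockouts in both places. There it covered 22.3% of subtelomeric length in SKO, 20% in DKO and 17.4% in sgControl. Of the rest it covered 20.2% in SKO, 19.8% in DKO and 17.9% in sgControl.

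Single bins gave the same picture for H3K27me3. A bin counted as marked when at least 50% of it lay in domains, and as lost or gained when both libraries of a genotype differed from both of the other. H3K27me3 was lost in SKO from 430 of 2263 subtelomeric bins (19%), against a background of 7.04% over all bins, and in DKO from 401 (17.7%), against 7.42%. It was gained in SKO in 38 of 5335 bins (0.712%), where 11.7% of all bins gained it, and in DKO in 55 (1.03%), where 12.3% did. H3K9me3 was lost in SKO from 384 of 1786 bins (21.5%; background 31.3%) and in DKO from 313 (17.5%; background 28.2%). Gains of H3K9me3 covered 247 of 5487 bins in SKO (4.50%; background 4.99%) and 209 in DKO (3.81%; background 5.00%), close to the background. Of the 384 bins that lost H3K9me3 in SKO, 133 lay at 3p, and 251 were left without that end. Stretches of lost H3K27me3 were short, with a median of 20 kb and at most 80 kb in SKO, and a median of 10 kb and at most 160 kb in DKO.

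Bins that carried both marks were fewer in the knockouts. Both marks were present in 617 subtelomeric bins in SKO (7.91%), 810 in DKO (10.4%) and 1216 in sgControl (15.6%), while 59.9% carried neither in SKO, 62.2% in DKO and 59.0% in sgControl. The rest had the same order, with both marks in 11.0% of bins in SKO, 14% in DKO and 17.1% in sgControl. Of the 1216, 316 (26.0%) carried H3K27me3 alone in SKO, against 34.1% of such bins in the rest, and 123 (10.1%) carried H3K9me3 alone, against 2.36% in the rest. Of the 754 bins with H3K27me3 alone in sgControl, 217 (28.8%) carried neither mark in SKO, against 10.2% of such bins in the rest. An exchange of H3K9me3 for H3K27me3 was rare at the chromosome ends. Of the 519 bins with H3K9me3 alone in sgControl, 3 carried H3K27me3 alone in SKO (0.578%), against 12.5% of such bins in the rest. In DKO 0 of the 519 did, against 10.8% in the rest. Over all chromosomes 4330 bins lost H3K9me3 and gained H3K27me3 in SKO and 3720 in DKO.

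H3K27me3 coverage was lower in the knockouts at most chromosome ends, by very different amounts. Its share was below sgControl, with no overlap of libraries, at 33 of 39 ends in SKO and at 33 in DKO. Over all 1506 windows of 2 Mb it was lower in 45.4% in SKO and in 42.9% in DKO. It was higher in 38.3% in SKO and in 38.0% in DKO. The 33 ends include small differences, such as 16q with means of 0.522% in SKO and 0.482% in DKO, against 0.622% in sgControl. At 12q the means were 8.79% in DKO and 9.16% in sgControl. At 10q (chr10:131780001-133778759), with the largest difference in both knockouts, 11.5% and 9.6% of the outer 2 Mb was covered in SKO and 12.2% and 12.1% in DKO, against 34.5% and 36% in sgControl. At 20q it was 11.3% and 9.3% in SKO and 16.1% and 14.6% in DKO, against 31.5% and 29.9% in sgControl. At 14q it was 45.9% and 45.7% in SKO and 48.1% and 46.9% in DKO, against 65.0% and 64.2% in sgControl. The next largest differences were at 5p and 4p in SKO and at 7p and 4p in DKO. The 7p end held no H3K27me3 in any knockout library, against 14% and 15.8% in sgControl. Only the 10p end was higher without overlap in SKO, and likewise in DKO, at 52.0% and 52.5% in SKO and 55.2% and 53.2% in DKO, against 50.1% and 51.3% in sgControl. There a 220 kb stretch at chr10:1730001-1950000, which overlaps an end of ADARB2, a gene of the RNA-editing deaminase family, gained the mark. Over its whole body ADARB2 had less H3K27me3 in the knockouts. The limma difference was -9.51 ± 0.999 points in SKO (SE, adjusted p = 0.00449) and -8.94 ± 0.999 in DKO (adjusted p = 0.00509). The 4 ends 16p, 17p, 17q and 19p had 0% in all 6 libraries, and 3p, 2p, 11q and 8p had the highest shares in sgControl.

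**Figure D3:**
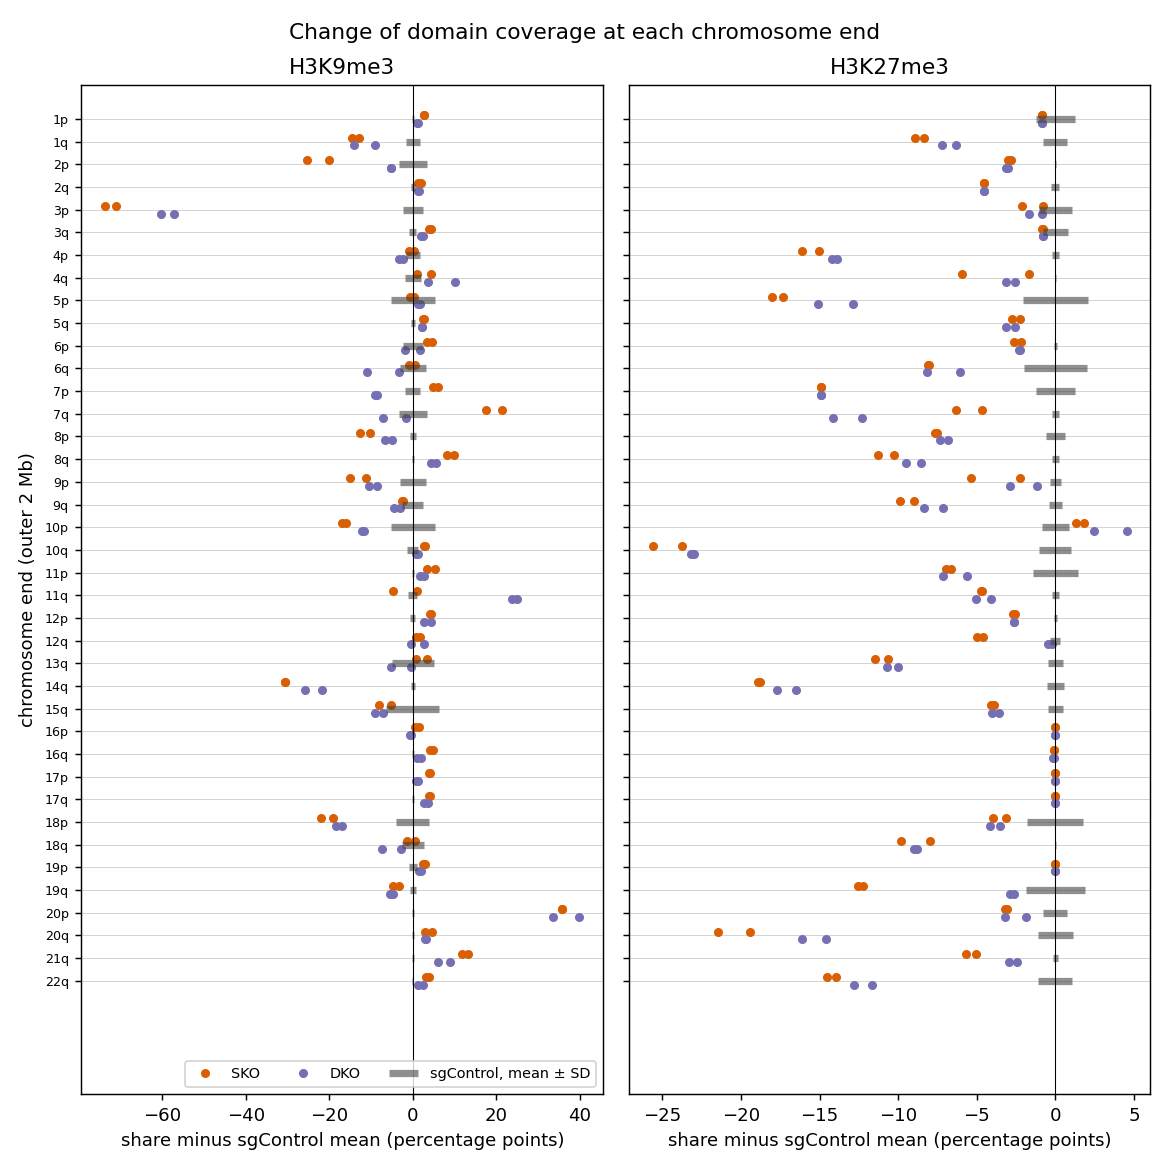
Share of each chromosome end inside domains minus the sgControl mean (percentage points), for H3K9me3 (left) and H3K27me3 (right). Points are the SKO and DKO libraries, above and below each line, and grey bars the sgControl SD (n = 2). H3K27me3 points lie left of 0 at most ends, and H3K9me3 points lie far from 0 on either side at a few ends such as 3p, 14q and 20p.

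H3K9me3 went different ways at different ends. SKO lay below sgControl at 11 of 39 ends and above it at 21, where 52.1% of all 2 Mb windows were lower and 30.7% higher. DKO lay below at 16 and above at 17, where 50.7% of all windows were lower and 29.8% higher. The ends above sgControl included small rises from a very low share, where a fall could hardly be seen. At 22q, 11p, 1p and 2q, above it in both knockouts, sgControl means were 0.0800% to 0.301%. Their means were 1.80% to 4.52% in SKO and 1.24% to 2.38% in DKO. At 3p (chr3:1-2000000) the mark covered 4.4% and 1.8% in SKO and 18.2% and 15.1% in DKO, against 77.1% and 73.8% in sgControl. The same end kept H3K27me3 over 94.0% to 96.9% of its length in every library. At 14q (chr14:104890001-106882400) H3K9me3 covered 1.9% and 1.8% in SKO and 6.6% and 10.7% in DKO, against 32.2% and 32.8% in sgControl. Lower shares were also found at 2p in SKO, at 1q in DKO, and at 18p and 10p in both.

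At 20p (chr20:1-2000000) H3K9me3 was instead higher, at 67.6% in both SKO libraries and 65.4% and 71.7% in DKO, against 31.7% and 31.9% in sgControl. The gained stretches ran over CSNK2A1, which encodes a catalytic subunit of casein kinase 2, PSMF1, which encodes a proteasome inhibitor, and RSPO4, which encodes a Wnt agonist of the R-spondin family. The other large rises were at 7q and 7p in SKO, at 11q and 4q in DKO, and at 21q and 8q in both. The ends with the highest H3K9me3 share in sgControl were 19q, 2p, 1q and 3p, and those with the lowest were 22q, 11p, 1p and 2q. At 19q, which holds a large zinc finger cluster, 84.8% and 86.2% was covered in SKO and 84.9% and 84.1% in DKO, against 90.1% and 89.0% in sgControl.

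**Figure D4:**
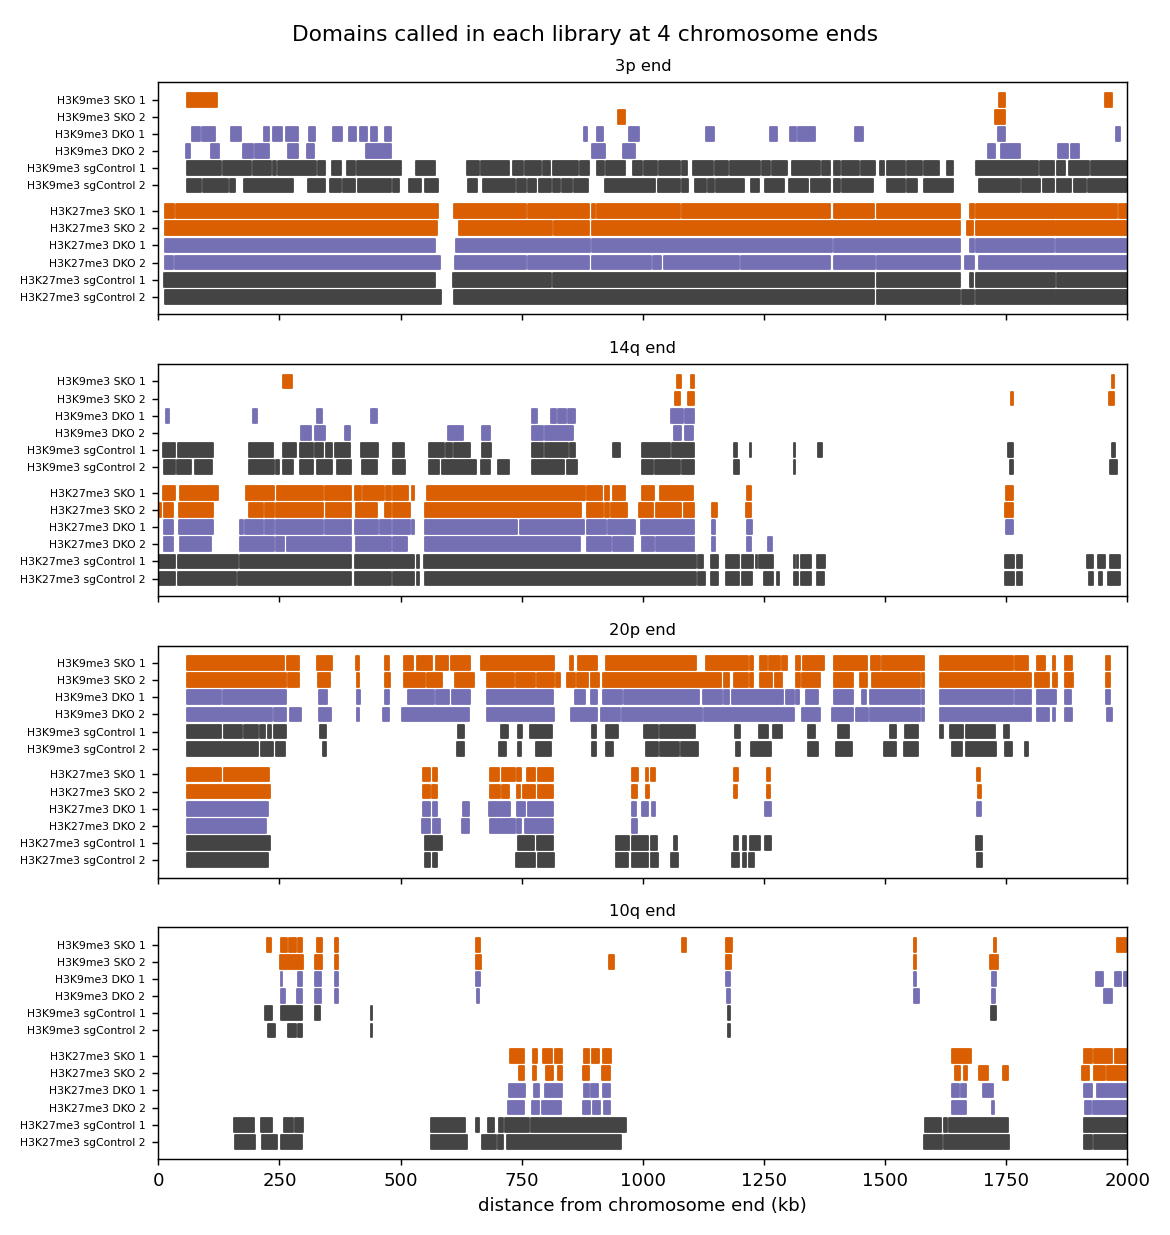
Domains called in each library against distance from the chromosome end (kb) at 3p, 14q, 20p and 10q, with SKO and DKO above sgControl for each mark. At 3p the H3K9me3 domains of sgControl are nearly absent in SKO and scattered in DKO while H3K27me3 is continuous in all; at 20p H3K9me3 domains are wider in the knockouts; at 10q H3K27me3 domains are narrower in the knockouts.

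The immunoglobulin heavy chain locus, whose gene segments are joined in B cells, fills the outer part of 14q. Its 174 annotated segments had a mean H3K9me3 coverage of 2.30% and 0% in SKO and 4.31% and 12.3% in DKO, against 48.3% and 48.2% in sgControl. Their H3K27me3 coverage was 69.3% and 69.9% in SKO and 79.9% and 73.7% in DKO, against 93.7% and 94.1% in sgControl. Both marks were lower over these segments in every knockout library.

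A gene call needed the covered share of the gene body to be separate between genotypes, with at least 25 points between the closest libraries. H3K27me3 was lost from 68 of 166 subtelomeric genes in SKO (41.0%; background 19.5% over all genes) and from 53 in DKO (31.9%; background 18.6%). It was gained at 2 of 1251 genes in SKO (0.160%; background 3.93%) and at 4 in DKO (0.320%; background 4.45%). H3K9me3 was lost from 28 of 226 genes in SKO (12.4%; background 24.6%) and from 27 in DKO (11.9%; background 23.1%), and gained at 47 of 1205 in SKO (3.9%; background 4.77%) and 32 in DKO (2.66%; background 4.45%). Overlapping genes share domains, and members of the olfactory and zinc finger families have near-identical relatives, so their single values are uncertain.

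Among genes that lost H3K27me3 was KNDC1 (chr10:133160219-133226412), a brain-expressed guanine nucleotide exchange factor gene. It was covered over 0% in all 4 knockout libraries, against 83.1% in each sgControl library, and had no H3K9me3 in any library. The limma difference of KNDC1 in SKO was -83.1 ± 0.245 points (SE, adjusted p = 7.26e-08), where the libraries of each genotype had identical coverage. LYPD8 (chr1:248739415-248755759), which encodes a secreted antibacterial protein of the colon, had 0% H3K27me3 in all knockout libraries and 100% in both sgControl libraries, with H3K9me3 over 100% in both SKO libraries, 41.3% and 100% in DKO and 100% in both sgControl libraries. ZNF772 and ZNF132, zinc finger genes on 19q, likewise had 0% H3K27me3 in all knockout libraries and 100% in sgControl, and kept H3K9me3 over 100% in all 6 libraries. BIRC7, which encodes an inhibitor of apoptosis on 20q, had 0% H3K27me3 in the knockouts and 100% in sgControl, and no H3K9me3 in any library. H3K27me3 was thus lost from bodies with H3K9me3 in every library and from bodies with none.

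The 2 genes that gained H3K27me3 in SKO both lay at 18q, as did 2 of the 4 in DKO. PARD6G (chr18:80157232-80247514), a cell polarity gene, had 76.6% and 65.1% in SKO and 87.2% and 88.1% in DKO, against 0% in both sgControl libraries. The limma difference of PARD6G in DKO was 87.7 ± 4.38 points (SE, adjusted p = 5.11e-04). Its neighbour ADNP2 (chr18:80109262-80140346), which encodes a homeobox zinc finger protein, had 61.8% and 28.3% in SKO and 82.4% and 74.6% in DKO, against 0% in sgControl. ADNP2 also gained H3K9me3, at 100% in both SKO libraries and 68.0% and 91.2% in DKO, against 0% and 6.2% in sgControl. ADNP2 was no longer called for H3K27me3 when libraries were trimmed to the same covered length.

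At 3p the H3K9me3 losses took in CHL1 and CNTN6. CHL1 (chr3:196763-409417), which encodes a neural cell adhesion molecule of the L1 family, had 0% in both SKO libraries and 46.6% and 29.3% in DKO, against 80.5% and 77.1% in sgControl. For CHL1 the limma fit over all genes gave -78.8 ± 6.55 points (SE) in SKO, with an adjusted p of 0.00456. CNTN6 (chr3:1093024-1404217), which encodes contactin 6, had 0% in both SKO libraries and 25.2% and 0% in DKO, against 84.1% and 77.2% in sgControl. DMRT2 (chr9:1050357-1057552), a transcription factor gene of the DM domain family, had 0% in all 4 knockout libraries against 89.5% in both sgControl libraries, and SALL3 on 18q, which encodes a spalt-like transcription factor, had 0% in the knockouts against 79.1% and 66.6% in sgControl. A1BG, which encodes a plasma glycoprotein, and CETN1, which encodes a centrin, had 0% in all knockout libraries and 100% in sgControl. Trimming all libraries to the same covered length removed the calls of CETN1, of ZNF552 and, in DKO, of CHL1.

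The H3K9me3 gains included RSPO4 (chr20:958452-1002311), covered over 100% in both SKO libraries and 94.6% and 100% in DKO, against 0% in both sgControl libraries. By limma, RSPO4 differed by 97.3 ± 2.23 points in DKO (SE, adjusted p = 1.37e-04). RSPO4 lost H3K27me3 at the same time, with 31.0% and 27.4% in SKO and 29.0% and 21.9% in DKO, against 85.4% and 81.8% in sgControl. SIRPB2 (chr20:1470685-1491420), a gene of the signal regulatory protein family of myeloid receptors, had 84.9% and 89.8% H3K9me3 in SKO and 100% in both DKO libraries, against 0% in sgControl. C20orf202 and LY6H, a gene of the LY6 family, had 100% in all 4 knockout libraries and 0% in both sgControl libraries.

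The 88 zinc finger genes kept H3K9me3, at a mean of 76.3% ± 0.0588 of the gene body in SKO and 73.2% ± 0.590 in DKO, against 77.4% ± 0.652 in sgControl (SD, n = 2). Of 72 that could lose it, 5 did in SKO and 5 in DKO (6.94% each, against the background of 24.6% in SKO and 23.1% in DKO), such as ZNF552 with 0% in all knockout libraries against 73.0% and 93.4% in sgControl. Of 21 that could gain it, 3 did in SKO (14.3%, background 4.77%) and 2 in DKO (9.52%, background 4.45%). Among them was ZNF517, with 70.6% and 84.2% in SKO, 70.6% and 59.7% in DKO and 0% in sgControl. Their H3K27me3 was 9.43% ± 0.780 in SKO and 17.1% ± 0.0293 in DKO, against 20.7% ± 0.818 in sgControl (SD, n = 2). It was lost from 12 of 20 zinc finger genes in SKO (60%) and 6 of 20 in DKO (30%). Of all subtelomeric genes that could lose it, 41.0% did in SKO and 31.9% in DKO. It was gained at 0 of 72 in SKO (background 3.93%) and 1 of 72 in DKO (background 4.45%).

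The 57 olfactory receptor genes had H3K9me3 over 45.6% ± 3.82 in SKO and 51.0% ± 3.32 in DKO, against 61.9% ± 0.101 in sgControl (SD, n = 2), with 6 of 36 called lost in SKO (background 24.6%) and 3 of 36 in DKO (background 23.1%). Their H3K27me3 was 60.9% ± 0.226 in SKO and 61.6% ± 0.0628 in DKO, against 62.8% ± 1.25 in sgControl (SD, n = 2). Of 36 that could lose it, 2 were called lost in each knockout (5.56%). That was below the share of all genes (19.5% in SKO, 18.6% in DKO) and of subtelomeric genes (41.0% in SKO, 31.9% in DKO). OR2L13 had 30.7% and 26.8% H3K9me3 in SKO and 57.1% and 47.8% in DKO, against 93.7% and 91.5% in sgControl.

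Of the 20 neuronal genes found at the chromosome ends, 15 could lose H3K27me3. It was lost from 6 of the 15 in SKO (40%) and from 5 in DKO (33.3%). These shares were close to those of all subtelomeric genes that could lose it, 41.0% in SKO and 31.9% in DKO. The background over all genes was 19.5% in SKO and 18.6% in DKO. H3K9me3 was lost from 3 of 9 in SKO (background 24.6%) and 3 of 9 in DKO (background 23.1%). It was gained at 0 of 15 in SKO (background 4.77%) and 1 of 15 in DKO (background 4.45%), the cell adhesion gene OPCML. Among the genes that lost H3K27me3 in SKO and in DKO were KNDC1, IQSEC3, CHRNA4, MYT1 and SLC6A3. The mean H3K27me3 over the 20 genes was 45.5% in SKO and 45.2% in DKO, against 63.6% in sgControl. MYT1, which encodes a neural zinc finger factor, had 42.6% and 46.7% H3K27me3 in SKO and 46.7% and 48.8% in DKO, against 93.8% and 94.9% in sgControl. SLC6A3, which encodes the dopamine transporter, had 36.5% and 33.4% in SKO and 35% in both DKO libraries, against 89.4% and 85.1% in sgControl. Of 21 developmental regulators only IRX4 and DMRT2 could lose H3K27me3, and 2 of 2 did so in each knockout. All subtelomeric genes had the shares of 41.0% in SKO and 31.9% in DKO given above. Of 5 that could lose H3K9me3, 3 did in SKO (SALL3, DMRT3 and DMRT2), against a background of 24.6%. In DKO 4 of the 5 did (SALL3, DMRT3, DMRT2 and DMRT1), against 23.1%. SOX12 gained it in SKO, 1 of 16 that could (6.25%, background 4.77%). These counts are small. Among 27 myeloid, interferon and immune genes, the rule of 25 points called SIRPB2 alone, as a H3K9me3 gain in each knockout. That was 1 of 24 that could gain it (4.17%), near the background of 4.77% in SKO and 4.45% in DKO. By limma there were 5 H3K9me3 gains and 1 loss in SKO and 4 gains and 1 loss in DKO. Among them was SIRPD with 22.8 ± 1.63 points in SKO (SE, adjusted p = 0.00329). Of all 7904 genes tested for H3K9me3, limma called 1446 gains and 1042 losses in SKO. In DKO it called 1200 gains and 1020 losses. The list was not tested against these counts. Of 10 genes listed as heterochromatin and telomere factors (TRIM28 and CHMP2A among them) the rule called ZMYND11 (10%, background 4.77%). It is a chromatin reader gene that gained H3K9me3 in SKO. By limma 2 of the 10 gained it in SKO and 1 in DKO, to be read beside the limma counts over all genes. The 10 mucin and beta defensin genes had 0 calls against sgControl, and DEFB129 lost H3K27me3 in DKO relative to SKO. The 5 alpha globin genes (HBZ, HBM, HBA2 and HBA1 among them) and the 14 multicopy genes of chromosome ends had no domain of either mark in any library. The same held for 10 genes listed as constitutive, TBP and EEF1A2 among them. The multicopy genes have near-identical copies, where reads that cannot be placed uniquely may leave no domain, so their 0 is no measure of the mark.

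DKO and SKO differed little in H3K27me3. DKO lost it from 26 of 1749 bins (1.49%; background 1.93%) and gained it in 60 of 5887 (1.02%; background 1.46%) relative to SKO. By gene, 2 of 106 lost it (1.89%; background 2.22%) and 18 of 1303 gained it (1.38%; background 0.843%), and zinc finger genes made up 10 of the 18 and 81 of the 1303. ZNF10 (chr12:133130627-133159465) had 95.2% H3K27me3 in both DKO libraries, against 0% in both SKO libraries and in both sgControl libraries. ZNF141 on 4p had 76.2% and 88.1% in DKO, against 31.9% and 9.7% in SKO, and 100% in both sgControl libraries.

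For H3K9me3, DKO lost 140 of 1596 bins relative to SKO (8.77%; background 8.95%) and gained 128 of 5659 (2.26%; background 3.09%). By gene it lost 18 of 251 (7.17%; background 7.26%) and gained 10 of 1196 (0.836%; background 1.65%). Without chromosome 7, 89 bins were lost. OPCML (chr11:132414981-133532501), a cell adhesion gene, had 45.6% and 42.2% in DKO against 6.66% and 7.09% in SKO, and 3.65% and 4.80% in sgControl. The limma difference of OPCML, DKO minus SKO, was 37.1 ± 1.70 points (SE, adjusted p = 0.00378). FOXL3 on 7p had 0% in both DKO libraries, against 100% in both SKO and both sgControl libraries, and its H3K27me3 was 0% in all 4 knockout libraries and 100% in sgControl. ZNF587B on 19q had 0% H3K9me3 in both DKO libraries, against 100% in both SKO libraries and 100% and 69.9% in sgControl.

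SETDB1 peaks were dense at the chromosome ends. The WT libraries had 1817 and 1933 subtelomeric peaks, 7.76% and 7.93% of all, or 23.3 and 24.8 peaks per Mb against 7.32 and 7.60 in the rest. The ratio was 3.19 and 3.27, and averaged 4.18 over the outer 500 kb. Peaks were densest 300 to 400 kb from the end, at 42.8 and 43.6 per Mb. The 19q end had 363 and 383 peaks, and the 3p end 0 in both libraries. The strongest peaks, by the authors' fold enrichment, lay at ZNF596 on 8p (120 and 109), at ZNF268 and ZNF84 on 12q, and at ZNF7 on 8q. All 15 of the strongest shared peaks lay in H3K9me3 domains in all 6 H3K9me3 libraries. No test of this ratio was run on the 2 libraries.

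Subtelomeric bins with a SETDB1 peak in both WT libraries seldom lost H3K9me3. Of 458 such bins marked in sgControl, 10 lost it in SKO (2.18%) and 24 in DKO (5.24%), whereas of 1083 without a peak in either library 356 lost it in SKO (32.9%) and 258 in DKO (23.8%). Among bins without H3K9me3 in sgControl, 51 of 260 with a peak gained it in SKO (19.6%) and 40 in DKO (15.4%), whereas of 4866 without a peak 3.12% did in SKO and 2.82% in DKO. In the rest of the chromosomes, bins with a peak lost H3K9me3 at 1.36% in SKO and 2.75% in DKO, and gained it at 37.1% in SKO and 35% in DKO. Of the bins with H3K9me3 alone in sgControl, 54.7% had a peak in both libraries, against 9.94% of all subtelomeric bins. Peaks were mapped in WT cells only, and neighbouring bins share domains and peaks, so these counts carry no p-value.

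**Figure D5:**
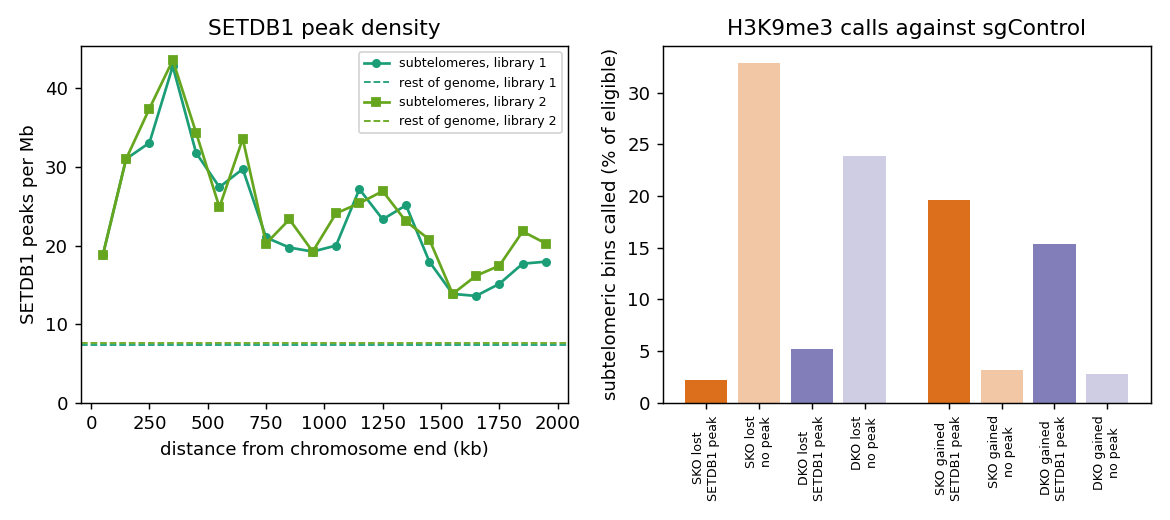
Left, SETDB1 peaks per Mb against distance from the chromosome end (kb) in 2 WT libraries, with the rest of the chromosomes as dashed lines. Right, percent of eligible subtelomeric bins that lost or gained H3K9me3 against sgControl, with a SETDB1 peak in both libraries (dark) or in neither (pale); losses are at most 5.24% with a peak, and gains at least 15.4%.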

How the data were processed

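ChIP-seq of H3K9me3, H3K27me3 and SETDB1 in U937 cells was analysed from 14 of 18 samples, and the 4 inputs were not analysed here. Drosophila S2 chromatin was added as a spike-in, per the labels' protocols. The submitters' processing notes name SICER, deepTools 3.5.6, FastQC 0.12.1 and Trim Galore 0.6.10, with dm6 and hg38 as builds. The aligner was not given in the sources used here. The deposited H3K9me3 and H3K27me3 files list epic2 domains per library, with a read count and a score for each domain as deposited by the authors, on an 800 bp grid with gaps of at least 4000 bp. The count is not scaled for depth or spike-in, and the score served to order domains inside each library. The deposited SETDB1 lists give each peak per library with the authors' fold enrichment, score, −log10 p-value and −log10 q-value.

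The covered share of bins and of gene bodies (protein-coding genes of RefSeq, GRCh38.p14, which shares its coordinates with hg38) was computed with Python 3.11.15, numpy 2.4.6 and pandas 2.3.3. Libraries were grouped by their titles. Shares were tested by exact permutation over libraries, and 10 tests were adjusted by the Benjamini-Hochberg method. Calls of bins and genes follow fixed differences and carry no p-value; limma 3.58.1 (R 4.3.3) over all genes was an alternative. The scripts were tested on simulated data. Percentages called over all bins or genes that could be called serve as background. For chromosome ends and distance windows, the background is 2 Mb windows over all chromosomes and pooled 100 kb windows 2 to 10 Mb from the same ends. For each mark, comparison and direction up to 6 called genes with the largest differences were eligible to be named, with every called member of the gene lists; CSNK2A1 and PSMF1 were named for their stretches after their values were seen. Not every gene eligible under this rule is reported here. For chromosome ends, the 4 with the highest and lowest share in sgControl and the 5 with the largest differences without overlap were named. The members and lists were chosen with earlier results of these data known. Alternatives were other bin and gene thresholds, other outer distances, the upper 50% of domains by score, equal covered length, gene-touching bins, left-out libraries, a replicate block and limma; a rest of autosomes only and the set without 3p were chosen after seeing the data. Depth limits the length that can be called, and the deposited lists do not show what was below the caller's threshold.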

Additional observations from a re-analysis of the deposited data

Results flagged for a closer look

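At 2 chromosome ends every SKO library moved opposite to every DKO library relative to sgControl in H3K9me3, and the difference was not tested. The 7p share was 5.46 points above sgControl in SKO and 8.84 points below it (-8.84) in DKO, with 19.8% and 21.1% in SKO, 6.0% and 6.3% in DKO, and 16.2% and 13.7% in sgControl. The 16p share was 0.92 points above sgControl in SKO and -0.58 points from it in DKO, with 2.1% and 1.1% in SKO, 0.2% and 0% in DKO, and 0.5% and 0.8% in sgControl.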

How the results depend on the processing

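H3K27me3 at subtelomeres stayed below sgControl under every alternative tried (-8.92 to -4.89 points; minus the rest -13.0 to -7.36). The H3K9me3 share turned with equal covered length, where its slope was 1.12 points per gene and its difference 2.83, and the cause was not tested. In bins that touch a gene the difference was 0.229 points, which is within the sgControl spread. The means there were 21.9% in SKO, 20.7% in DKO and 21.1% ± 1.33 in sgControl (SD). No adjusted p of the 10 share tests passed 0.05, and none could. The smallest p that these exact permutation tests can give is 0.0222 (trend), 0.03125 (within libraries) or 0.0667 (knockouts against sgControl). After adjustment over 10 tests all of these lie above 0.05, so this outcome says nothing about the differences.

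Marking bins at 90% gave 162 H3K9me3 gains in SKO and 85 in DKO against SKO. Equal covered length gave H3K9me3 189 lost and 405 gained bins in SKO, 163 and 319 in DKO, and 34 H3K27me3 gains in DKO; by gene, 17 H3K9me3 losses in DKO, H3K27me3 gains of 1 in SKO and 2 in DKO, and 1 loss and 11 gains in DKO against SKO. Of the differences of named genes, 142 kept their side of the threshold under it, 23 no longer passed, and 0 reversed. Without chromosome 7, DKO against SKO lost 89 (H3K9me3) and 16 (H3K27me3) bins. Without 3p, chosen after seeing the data as was a rest of autosomes only, SKO lost H3K9me3 in 251 bins.

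A gene difference of 10 points gave H3K9me3 43 lost and 90 gained in SKO, 41 and 65 in DKO, and 45 and 20 in DKO against SKO, with 7 H3K27me3 gains in DKO and 5 losses in DKO against SKO. At 50 points H3K9me3 gave 18 lost and 19 gained in SKO, 13 and 12 in DKO, and 4 and 3 in DKO against SKO; H3K27me3 gave 44 lost and 1 gained in SKO, 30 lost in DKO, and 1 and 9 in DKO against SKO. limma gave 75 H3K9me3 gains in SKO and 50 in DKO, 1 H3K27me3 gain in SKO, and 1 loss and 7 gains in DKO against SKO. The SETDB1 ratio was 3.9 for peaks with a −log10 p of at least 10, 3.72 for peaks shared by 1 bp, 3.68 for 50% reciprocal overlap, 3.68 over the outer 1 Mb and 4.18 over the outer 500 kb.

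Replicate numbers did not pair the libraries (correlations of -0.0215 to 0.0155). With the replicate block the knockout differences were unchanged at -6.32 points for H3K27me3 and -2.12 for H3K9me3 (exact permutation p = 0.111 each), and limma with the block gave 4 H3K9me3 losses and 4 gains and 5 H3K27me3 gains in DKO against SKO, and 1 H3K27me3 gain in SKO.

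Leaving out a library at a time gave these ranges. The call rules need all libraries of both genotypes to agree, so counts of bins and genes could only stay or rise. The ranges of counts therefore do not show how stable the calls are. The H3K27me3 share differed by -6.53 to -6.1 points (slope -3.53 to -2.34), and minus the rest by -11.8 to -11.4 (slope -6.61 to -4.6; within libraries -14.5 to -12). In SKO against sgControl, H3K27me3 was lost from 493 to 518 bins and 72 to 80 genes and gained at 42 to 56 bins and 2 to 6 genes. In DKO against sgControl, H3K27me3 was lost from 448 to 482 bins and 58 to 65 genes and gained at 61 to 77 bins and 5 to 9 genes. In DKO against SKO, H3K27me3 was lost from 42 to 47 bins and 2 to 5 genes and gained at 92 to 118 bins and 20 to 24 genes. The H3K9me3 share differed by -3.07 to -1.17 points (slope -1.39 to -0.551), and minus the rest by 6.02 to 6.91 (slope 2.09 to 3.71; within libraries -4.63 to -3.1). In SKO against sgControl, H3K9me3 was lost from 488 to 550 bins and 31 to 43 genes and gained at 300 to 370 bins and 50 to 69 genes. In DKO against sgControl, H3K9me3 was lost from 412 to 483 bins and 32 to 42 genes and gained at 256 to 350 bins and 37 to 50 genes. In DKO against SKO, H3K9me3 was lost from 219 to 270 bins and 31 to 36 genes and gained at 207 to 281 bins and 18 to 22 genes.

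Depth limits what can be called as a domain, and the lists give no value below the caller's threshold.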
